A study of Mus musculus with 2 samples.

Results

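The immunoglobulin genes were followed on 2 single-colour Agilent arrays of CD4 T cells sorted from mouse spleen cultures. The probes were taken by their text on the array: a description that names an immunoglobulin (Ig) heavy, kappa or lambda chain, or a gene name of the Igh, Igk or Igl type, with Ighmbp2 left out. This rule matched 151 of 55681 noncontrol probes. Of these, 4 belong to Rbpj and Rbpjl, DNA-binding proteins whose long names hold the words immunoglobulin kappa, and they are described apart. The remaining 147 probes carry 136 different names and 147 different sequences. The heavy chain has 45 of them (37 variable, 7 constant and 1 of no stated class), kappa has 96 (93 variable, 2 constant and 1 of no stated class) and lambda has 6 (2 variable, 3 constant and the surrogate light chain gene Igll1).

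Both arrays came from female OVA-TCR-Tg mice, whose transgenic T cell receptor recognises ovalbumin (OVA). In the naive-only culture, spleen cells (2500000 per mL) received OVA at 0.1 mg/mL. In the co-culture with anergic cells, spleen cells stimulated beforehand with the bacterial superantigen TSST-1 (0.1 µg/mL) were cultured together with as many fresh spleen cells of the same strain (1250000 per mL) and OVA at 0.1 mg/mL. CD4+ T cells were collected by cell sorter after 24 h, and whether that sort kept fresh and pre-stimulated cells apart is not given in the labels. With 1 array per culture there was no replicate check, and no difference was tested. The series' design text sets the co-culture against the naive-only culture.

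Immunoglobulins are the antigen receptors of B cells and, in secreted form, the antibodies made by plasma cells. Each B cell joins 1 variable segment to joining segments (and, for the heavy chain, a diversity segment) by DNA recombination, and the joined exon is spliced to a constant region; mu and delta come first, and class switching brings in gamma, epsilon or alpha. T cells rearrange the related T cell receptor loci instead, and mature CD4 T cells are not known as immunoglobulin producers. Spleen holds many B cells beside its T cells, and the cultures were of whole spleen cells before the sort.

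The sequences below are those of the probes on which the account turns; positions are on mm9, per the files. The kappa constant probe (chr6:70676692-70676751, plus strand) and the mu constant probe (chr12:114659630-114659689, minus strand) are shown because every kappa chain and every IgM heavy chain uses the region they read.
Igkc: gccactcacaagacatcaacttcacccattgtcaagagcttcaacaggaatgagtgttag
Ighm: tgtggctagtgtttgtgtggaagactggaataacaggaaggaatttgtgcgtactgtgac
The 2 probes of lambda constant 3 (chr16:19065462-19065521 and chr16:19065480-19065539, minus strand) overlap, and capitals mark the 42 bases they share.
Iglc3 probe 1: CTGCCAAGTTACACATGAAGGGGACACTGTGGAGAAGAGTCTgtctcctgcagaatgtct
Iglc3 probe 2: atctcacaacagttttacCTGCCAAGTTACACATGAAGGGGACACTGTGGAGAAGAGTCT
Variable segments resemble each other, so a probe named for 1 segment can bind transcripts of another. Igkv6-17 (chr6:70321926-70321985) and Igkv8-28 (chr6:70093587-70093646) are of different families and share the 40 bases in capitals.
Igkv6-17: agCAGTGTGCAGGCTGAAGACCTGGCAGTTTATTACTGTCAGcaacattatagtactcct
Igkv8-28: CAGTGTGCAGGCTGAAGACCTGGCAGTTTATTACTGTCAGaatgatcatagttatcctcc
Igkv4-57-1 (chr6:69494355-69494414) and Igkv4-78 (chr6:69009686-69009743) share 53 bases, the longest run among these probes.
Igkv4-57-1: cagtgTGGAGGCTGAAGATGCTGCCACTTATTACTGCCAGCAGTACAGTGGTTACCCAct
Igkv4-78: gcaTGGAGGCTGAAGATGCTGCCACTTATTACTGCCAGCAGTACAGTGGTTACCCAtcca
Igkv8-21 (chr6:70265062-70265121), the exception in direction, shares the 20 bases in capitals with Igkv7-33 (chr6:70008779-70008838).
Igkv7-33: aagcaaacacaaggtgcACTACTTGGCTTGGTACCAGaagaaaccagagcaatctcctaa
Igkv8-21: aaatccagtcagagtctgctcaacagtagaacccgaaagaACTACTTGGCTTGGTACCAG
Igkv8-24 had the lowest difference of the immunoglobulin probes above background on both arrays. Igkv19-93 (chr6:68686311-68686370) had the lowest of those above background on the naive-only array alone. The 60 bases of the Igkv8-24 probe map over 259 bases of the genome (chr6:70167148-70167406), as for a probe across a splice junction; in immunoglobulin genes a short intron parts the leader from the variable exon.
Igkv8-24: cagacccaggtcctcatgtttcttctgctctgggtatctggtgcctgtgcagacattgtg
Igkv19-93: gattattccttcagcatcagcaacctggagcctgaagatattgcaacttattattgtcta

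Immunoglobulin probes were far dimmer on the co-culture array at all 3 loci. Of the 147, the naive-only array detected 118 (80.3%) well above background and the co-culture array 62 (42.2%), against 46.2% and 45.1% of all noncontrol probes. The 62 were above background on both arrays and are called measured below. Another 56 were above background in the naive-only culture alone (4.03% of all probes were), 0 in the co-culture alone (2.94% of all probes) and 29 in neither. Thus 47.5% of the immunoglobulin probes seen on the naive-only array were not well above background on the other, against 8.71% of all probes seen there.

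A difference is given as co-culture minus naive-only, in log2 of the processed intensity relative to each array's 75th percentile. Among the 62 measured probes, 56 were lower by at least 2-fold in the co-culture, whereas 5.12% of the 23501 measured probes of the whole array were. None of the 62 was at least 2-fold higher, against 6.56% of all measured probes. The median difference was -2.76, or 6.78-fold lower, and the interquartile range of the probes ran from -3.20 to -1.85. The median over all measured probes was -0.05. In all, 61 of the 62 lay below 0, as did 54.9% of all measured probes. At 4-fold, 45 were lower (1.17% of all measured probes), so these probes made up 16.4% of the 274 on the array that passed 4-fold. At 16-fold, 11 were lower, of 24 on the whole array.

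The measured probes are those bright enough on both arrays; of the 85 others, 56 were bright enough in the naive-only culture alone. Without any filter, 131 of the 147 lay below 0, against 37% of all probes, and the median was -2.59. With the 56 set at their bounds (explained with the gamma probes below), the median over 118 probes was -2.42. With normexp background correction in place of the software's, the median of the measured immunoglobulin probes was -1.84. Of the 62, 48 were then at least 2-fold lower, against 3.02% of all measured probes with that correction. All 62 differences kept their sign and were smaller in size. The technical error beside a difference (median 0.23) is the software's own estimate and covers no variation between cultures.

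Igkc, the constant region that all kappa chains carry, had an intensity of 35400.1 in the naive-only culture and 3689.7 in the co-culture, a difference of -3.27 ± 0.20 (technical error), or 9.65-fold lower. A further probe that carries the Igkc name, at chr6:70690489-70690548, was too dim to stand well above background on either array.

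Ighm, the constant region of IgM, the first class a B cell makes, went from 13575 to 2819 intensity units, a difference of -2.28 ± 0.20, or 4.85-fold lower. Its probe is printed in 10 spots. They spread from 13063 to 13910 in the naive-only culture and from 2525 to 2969 in the co-culture, and the arrays did not overlap. The mu difference was smaller in size than that of kappa by more than either technical error.

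Of the gamma constant probes measured on both arrays, those of switched IgG antibodies, the lowest was BC019489, described as IgG2a, at 848 and 49.7 units (-4.10 ± 0.24, 17.1-fold lower). AK007918, also described as IgG2a, had 375 and 49.0 (-2.95 ± 0.24). A probe of a gamma polypeptide (ENSMUST00000103418) had 399 units on the naive-only array. It was not well above background on the other, at 11.4, and was 19.9-fold lower by its bound, which is larger in size than the BC019489 difference. That bound sets its naive-only level against the higher of its own co-culture signal and the dimmest signal well above background there (20.2 units). Bounds of this kind are no strict limits. Igkv15-103 probe 2, for one, had 25.3 units there and was not called well above background. Ighg1 was the exception among constant regions. Its measured probe had 142 and 78.2 units, a difference of -0.87 ± 0.23 that did not pass 2-fold. Its other probe was at 106.5 and 19.8, above background on the naive-only array alone, and 5.31-fold lower by its bound. The probe named Ighg2c (chr12:114523536-114523595) was too dim to stand well above background on either array. The probes described as IgG2a, BC019489 (chr12:114525496-114525555) and AK007918 (chr12:114525600-114525659), map near it. Whether they read the same gene was not settled here, so a dim probe does not show Ighg2c to be absent.

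Among constant probes measured on both arrays, the lambda constants had the lowest differences; the gamma polypeptide above has a bound only and is not ranked with them. Iglc2 had 5422 units in the naive-only culture and 239 in the co-culture, a difference of -4.52 ± 0.21, or 22.9-fold lower. The overlapping Iglc3 probes shown above gave 10257 and 456 units (-4.50) and 9369 and 354 units (-4.74). Both are lower to about the same extent, and as they share most of their bases they are not separate measurements. Iglv1, a lambda variable segment, went from 1074 to 81.9 units (-3.72 ± 0.22, 13.2-fold lower), and Iglv3 was above background on the naive-only array alone. The surrogate light chain gene Igll1, which B cell precursors use in place of a light chain, was too dim to stand well above background on either array.

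By locus, the median difference was -2.28 for heavy (13 measured, 11 at least 2-fold lower), -2.76 for kappa (45 measured, 41 lower) and -4.51 for lambda (4 measured, all 4 lower). The ranges overlapped: heavy probes lay between -4.25 and -0.52, kappa probes between -5.72 and 0.97, and lambda probes between -4.74 and -3.72. By class, the 53 measured variable probes had a median of -2.74 (48 at least 2-fold lower) and the 8 constant probes -3.69 (7 lower). With normexp correction these were -1.67 and -3.12. Class and locus are mixed here, as lambda gave 3 of the 8 constant probes and 1 of the 53 variable probes. Within heavy, the constant median was -2.61 (4 measured) and the variable median -1.87 (8). Within kappa they were -3.27 (1) and -2.75 (44), and within lambda -4.52 (3) and -3.72 (1). These orders depend in part on the filter. With heavy probes seen on 1 array added at face value, the constant median was -2.69 and the variable median -2.83, the reverse order. Held to their bounds, these medians were -2.68 and -1.89. The heavy and kappa locus medians were -2.80 and -2.84 at face value, and -2.24 and -2.44 with bounds. By naive-only signal, which is itself one term of the difference and which pools both classes here, the median was -1.80 in the dimmest 20 measured probes, -2.78 in the next 20 and -3.91 in the brightest 22. A dim probe has less room to be lower and still count as measured. The part of brightness in the order of loci and classes was not tested.

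Kappa variable segments bind antigen in most mouse antibodies, and here they make up most of the probes. Of the 93, 79 were above background in the naive-only culture and 44 in the co-culture. The 44 had a median of -2.75, and 40 were at least 2-fold lower. The lowest was Igkv8-24, at 2492 and 47.6 units (-5.72 ± 0.24, 52.7-fold lower), which ranked 2 among all 23501 measured probes counted from the lowest difference. Igkv8-30 had 1963 and 94.7 units (-4.38), and Igkv6-17 had 3295 and 161 (-4.36 ± 0.21). Igkv8-28, which shares 40 bases with Igkv6-17, had 1868 and 112 (-4.07), and the probe named Igkv4-71, taken by rule for its high level, had 1932 and 286 (-2.76 ± 0.21). That probe maps at chr6:69494430-69494489, beside the Igkv4-57-1 probe. It does not lie between the probes of Igkv4-70 (chr6:69217982-69218041) and Igkv4-72 (chr6:69176852-69176911), so its name may not be that of the segment it reads.

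Among kappa segments above background on the naive-only array alone, Igkv19-93 had the largest bound. It stood at 3129.97 units there and at 21.0 on the co-culture array, 149.9-fold lower by its bound. In log2 that bound is -7.23 with a technical error of 0.39, and it is the probe's own difference, so it is no firm limit. The lowest difference of any measured probe was -7.08, within that error of it. Igkv1-88 had 566 and 21.5 units and was 26.5-fold lower by its bound, which is likewise its own difference (-4.73 ± 0.37).

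A few segments differed less. Igkv8-21 was the sole measured immunoglobulin probe above 0, with 57.6 units in the naive-only culture and 114 in the co-culture (0.97 ± 0.25). Igkv7-33, which shares 20 bases with it, was above background on the naive-only array alone. Igkv4-72 had 260.0 and 209.9 units (-0.32 ± 0.21). Igkv4-50 (-0.85) and Igkv1-35 (-0.90), named after their values were seen, did not reach 2-fold, nor did Ighg1 above and Ighv10-3 below. These 6 are all the measured immunoglobulin probes that did not pass 2-fold.

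The kappa families overlapped. Igkv4, the one with most probes, had 14 of 20 measured, with differences of -3.21 to -0.32 and a median of -2.82. Igkv8 had 5 of 7 measured and held both extremes, from -5.72 to 0.97, with a median of -4.07. Igkv1 had a median of -2.79 over 6 and Igkv6 of -1.90 over 4. Igkv3 had 9 probes above background in the naive-only culture and 2 in the co-culture. Of the 4 Igkv9 probes, 3 were above background in the naive-only culture and 0 in the co-culture.

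By position and orientation the kappa medians lay close together. Kappa segments lie in both orientations and join by deletion or by inversion. The median was -2.74 on the plus strand (17 measured) and -2.76 on the minus strand (27 measured). In the part of the locus nearer to the Igkc probe, up to 1459 kb, the median of 22 measured probes was -2.55, and in the farther part, from 1499.8 to 3171 kb, it was -2.86 over 22. Spearman's rho between distance and difference was -0.19 over 44 probes, a description only, since the probes share both arrays and some of their sequence.

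Heavy chain variable probes were seldom bright enough on the co-culture array. Of 37, 25 were above background in the naive-only culture and 8 in the co-culture, with a median of -1.87 and 7 at least 2-fold lower. Ighv3-8 had 290.5 and 41.2 units (-2.83 ± 0.25), and Ighv14-3 had 237 and 63.6 (-1.91 ± 0.22). At the other end were AY171990 at 109.5 and 39.8 units (-1.47) and Ighv10-3 at 84.0 and 58.8 (-0.52 ± 0.26), the smallest difference in size among the measured heavy chain probes. Of the 15 Ighv1 probes, the family with most heavy chain probes, 10 were above background in the naive-only culture and 2 in the co-culture.

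Some heavy chain probes with a variable description or name do not map among the variable segments. XM_003085465 (chr12:114496985-114497044) had 4331 and 229.8 units (-4.25 ± 0.21, 19.0-fold lower), and XM_001472091 (chr12:114497090-114497149) had 1835 and 104 (-4.16 ± 0.21). They lie beyond the gamma probes on the side away from mu, where the RefSeq gene order (GRCm38.p6) has Ighe and Igha, constant regions of IgE and IgA. The probe named Ighv14-2 (chr12:114654277-114654336) is described as the membrane form of the delta chain constant region and lies next to the mu probe. It had 342 units in the naive-only culture and 20.1 in the co-culture, 17.1-fold lower by its bound. That bound is nearly its own difference (-4.10 ± 0.40). A first Igh-VJ558 probe (chr12:114498348-114498407) lies near the XM probes and was 9.12-fold lower by its bound. With heavy probes classed by position instead, a choice made after the data were seen, the heavy variable median was -1.72 (6 measured) and the heavy constant median -3.52 (6 measured).

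Probes that share sequence had similar differences. Among the 147 probes, 44 share an exact run of at least 20 bases with another, in 64 pairs. In the 36 such pairs with both probes measured, the median gap between the 2 differences was 0.22, against 1.20 over all 1891 pairs of measured probes, and the widest was 2.65. The 1891 pairs also run across loci and families, so this contrast does not set shared sequence apart from shared locus or family. Igkv4-57-1 and Igkv4-78, with the 53 shared bases shown above, differed by -3.04 and -2.96. Counts of probes are therefore no counts of separate transcripts.

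The runs shared by Igkv6-17 with Igkv8-28 and by Igkv4-57-1 with Igkv4-78 hold the end of framework 3. There the codons for tyrosine and cysteine before the joining segment read TATTACTG or, with phenylalanine, TATTTCTG. Searched on both strands, these 2 motifs, which do not overlap, occur in 42 of 132 variable probes (31.8%), 0 of 12 constant probes and 0.889% of all noncontrol probes. Measured variable probes with a motif had a median of -2.95 (24 probes) and those without -2.12 (29 probes). In kappa these were -2.96 (20 probes) and -2.13 (24), and in heavy -1.91 (3) and -1.83 (5), so the gap is one of kappa probes. The GC content of the measured immunoglobulin probes ran from 38.3% to 55%, and Spearman's rho between it and the difference was -0.13 over 62 probes, given as a description.

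Of the matches that are not immunoglobulin genes, Rbpj, the DNA-binding partner of Notch, was higher on the co-culture array by both of its probes, at 379.7 and 915 units (1.26) and at 2794 and 7406 units (1.40). They were the only matches of the rule at least 2-fold higher. Its relative Rbpjl was not well above background on the co-culture array by either probe.

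Markers of B cells moved with the immunoglobulin probes. Of 17 listed B cell genes, 14 were measured, with a median of -1.74. By at least 2-fold, 13 were lower and 1, Faim3 (1.33), higher (5.12% and 6.56% of all measured probes). The summed intensity of the 17 was 20478 in the naive-only culture and 8078 in the co-culture, and all 17 were above background on the former. Faim3 gave 4040.4 of the co-culture sum, and without it the sums were 18884.0 and 4038. Ms4a1, which encodes CD20, had 3438 and 106 units (-5.03 ± 0.22). Cd79a and Cd79b, the signalling chains of the B cell receptor, differed by -1.76 and -1.46. In a bulk sample, fewer cells of a type and less RNA per cell cannot be told apart, and the part of B cells in the immunoglobulin differences was not tested.

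Plasma cell genes had a median of 0.02 over 8 measured, with 1 lower and 2 higher by at least 2-fold (5.12% and 6.56% of all measured probes). Igj, the chain that joins IgM and IgA into polymers, was lower at 2543 and 278 units (-3.20 ± 0.21). Xbp1 (1.15) and Prdm1 (1.84), transcription factors of plasma cells that activated T cells also express, were higher. Class II presentation genes, carried by B cells and other presenting cells, had a median of -1.35, with 6 of 9 measured genes lower by at least 2-fold, such as H2-Aa (1645 and 103.5 units), H2-Eb1 (-3.12) and the invariant chain gene Cd74 (-2.79).

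Of 8 measured genes of assembly and switching of immunoglobulin genes, none passed 2-fold, with a median of -0.24; over all measured probes 5.12% were lower and 6.56% higher, so a count of 0 among 8 is near the background. Lig4, the ligase of end joining, differed by -0.49, Xrcc5, a Ku gene, by -0.38 and the uracil glycosylase gene Ung by -0.34. Rag1 and Rag2, which encode the enzyme that starts recombination, were too dim to stand well above background on either array. Among 7 measured transcription factors, Pou2af1, the B cell coactivator of octamer promoters, was the only one at least 2-fold lower (3579.9 and 666 units, -2.44 ± 0.20). Nfkb1 (-0.81) and Irf8 (-0.78) did not pass 2-fold, and the median was -0.56. Of 9 measured immunoglobulin receptor genes, 5 were lower by at least 2-fold, such as Fcer2a (-2.86), Fcgr2b (-2.06) and Cd79a. Faim3, the IgM receptor gene, was higher. Fcer2a, Cd79a, Cd79b and Faim3 are also in the B cell list, so these lists are not separate sets of genes. Fcamr, a receptor of IgM and IgA, was above background in the co-culture alone (4.44 and 100.6 units) and 5.45-fold higher by its bound.

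CD4 T cell markers were measured for 10 of 10 genes on the arrays, and none passed 2-fold. As 5.12% of all measured probes were lower and 6.56% higher, a count of 0 among 10 is near the background. Cd4 had 13954 and 17944 units (0.35 ± 0.20) and Cd3e 20733 and 26948 (0.37 ± 0.20), and the list's median was 0.30. Of the 10, 7 lay above 0 and 3 below, namely Cd5 (-0.92, the largest in size), Cd28 (-0.71) and Lat (-0.56), these 3 named after their values were seen. The T cell receptor segments, a set chosen after the data were seen, had 38 of 79 probes above background in the naive-only culture and 43 in the co-culture. Of the 33 measured, 1 was at least 2-fold lower and 6 higher (5.12% and 6.56% of all measured probes), with a median of 0.23 and a range of -1.11 to 4.23, the upper end being the T cell receptor gamma constant probe. Their interquartile range, -0.09 to 0.88, did not overlap that of the immunoglobulin probes. Nor did that of all measured probes, -0.36 to 0.29, so this is not particular to the T cell receptor probes.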

How the data were processed

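RNA of sorted CD4 T cells was amplified (Ovation V2) and labelled with Cy3 per the labels' protocols; amplification can alter relative levels, which 1 array per group cannot show. Both arrays were on 1 slide and scan. Spot intensity is the background-subtracted processed signal per the file headers, which name Feature Extraction 10.7.1.1, while the submitters' processing notes name Agilent Feature Extraction 9.5.1.1; which of them made the values is not settled here. The authors' deposited value table, also a linear intensity, served as an alternative on a log2 scale.

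Each probe's level is the mean log2 processed signal of its spots, less the 75th percentile of noncontrol probes on that array (299.4 and 301.3 units). A probe was measured where the software called it well above background on both arrays, and counts used a log2 difference of 1. No immunoglobulin probe was saturated. Classes came from gene names and descriptions. Of the 147 probes, 137 map to their locus chromosome, 9 have no position and 1 lies elsewhere. A RefSeq table (GRCm38.p6) matched 127 by symbol and was used for names and gene order only. A planned octamer search in promoters was not run, and promoters of these segments were not analysed here.

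Constant regions, the extremes and brightest variable segments per locus, the largest bounds and set genes of the marker lists were named by rule; other genes and segments, named for shared sequence, position or as exceptions, were chosen after their values were seen. Some genes the rule took are not reported here. The members and lists were chosen with earlier results of these data known. Calculations used Python 3.11.15, numpy 2.4.6, pandas 2.3.3, R 4.3.3 and limma 3.58.1. The code of the level and difference steps was tested on simulated data with known shifts past 2-fold. That test did not cover background or bounds and bears on no result here. Alternatives were normexp correction with an offset of 50, other scalings, the deposited table, filters, outlier spots, position and 1 probe per name. With 1 array per group, the number of arrays limits the precision.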

Additional observations from a re-analysis of the deposited data

How the results depend on the processing

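No paired analysis was possible because each group has 1 array. Differences kept their sign for all 62 measured probes under the deposited table, median scaling, quantile normalization and outlier removal, within each probe's technical error; the largest change came with normexp correction, where 57 of 62 moved by more than that error. Normexp medians were -1.84 over all immunoglobulin probes, -1.51 for heavy, -1.84 for kappa, -4.26 for lambda, -1.67 for variable and -3.12 for constant. Among brighter probes, 8 were left, all 8 at least 2-fold lower (3.03% of all brighter probes). The medians of the 8 were -4.30 for all, -3.26 for heavy, -3.27 for kappa, -4.25 for variable and -4.50 for constant. With probes above background on either array, 110 of 118 (10.00% of all such probes) had signals at least 2-fold lower. The heavy median was then -2.80 and the kappa median -2.84. With no filter, 120 of 147 (7.54% of all probes) had signals at least 2-fold lower and the constant median was -3.11. These take co-culture signals not above background at face value; held to their bounds, 45 of the 56 probes seen on 1 array and 101 of 118 in all were at least 2-fold lower. With 1 probe per name the constant median was -3.27, and with heavy probes classed by position it was -4.13. At median scaling 1 probe, Igkv8-21, passed 2-fold higher. At the main scaling, with Rbpj and Rbpjl counted, 2 probes did, both of Rbpj. Class by position and the count with Rbpj were chosen after seeing the data. Dim signal limits the 56 probes seen on 1 array to bounds.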
